A study of Homo sapiens with 4 samples.

Results

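The complement genes described here are 32 human genes for the plasma and membrane proteins of the complement system, chosen by name and matched to the Ensembl identifiers of 4 count tables that list 62893 genes each. RNA sequencing was done on total RNA of Hep-G2 cells, a human hepatoma line, at passage 21. The shFTO cells carried 1 short hairpin RNA, construct TRCN0000246247, against FTO, an RNA demethylase that acts on N6-methyladenosine, and the scramble cells carried the control hairpin SHC002. Each group has 2 tables, called run 1 and run 2, and neither the number of clones behind a line nor the number of cultures is stated in the labels. All values below therefore compare 1 line carrying 1 hairpin with 1 control line.

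Complement is a cascade of plasma proteases and their substrates, made mostly by hepatocytes, that marks and lyses microbes. The classical and lectin branches start with recognition proteins and serine proteases that cleave C4 and C2, and the alternative branch amplifies the cleavage of C3 through factor B and factor D. Cleavage of C5 starts the terminal branch, in which C6, C7, C8 and C9 form a membrane pore, while soluble and membrane-bound regulators keep the cascade off host cells.

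The runs held 20220271 and 20706611 gene-assigned reads in shFTO and 20047409 and 20474554 in scramble. The runs of a group differed by no more than sampling noise (chi-square per degree of freedom 1.013 over 13674 genes for shFTO, p = 0.142, and 1.019 over 13359 genes for scramble, p = 0.0648), so they were pooled and counted as 1 sample per group. The folds that follow carry exact Clopper-Pearson 95% intervals on pooled reads, which cover counting error only, and there is no replicate check. FTO itself was 5.32-fold lower in shFTO (4.63 to 6.13), with 116 and 128 reads in the shFTO runs and 594 and 550 in the scramble runs. Of 10 hepatocyte markers all 10 had reads in every run and all were lower in shFTO, with a median log2 ratio of -1.47. The 4 with the largest folds were FGB (52.9-fold lower, 42.9 to 66), TTR (19.8-fold, 16.3 to 24.1), AHSG (3.71-fold, 3.68 to 3.74) and ALB (3.2-fold, 3.19 to 3.22). Among all 13767 genes that passed the filter on low counts, 49.1% were lower and the median log2 ratio was 0.01. The summed levels of the markers were 18214 to 18284 CPM in the shFTO runs and 42194 to 42233 CPM in the scramble runs. CPM is the number of reads of a gene per 1000000 reads of the library, with library sizes scaled by TMM, a trimmed mean of log ratios. In bulk RNA, fewer cells making a transcript and less of it per cell cannot be told apart.

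Most complement transcripts that could be measured were lower in the knockdown line. Of the 32 genes, 24 passed the filter on low counts, and among these 21 were lower and 3, namely C1R, C1S and CD59, were higher, beside 49.1% lower and 50.9% higher among all 13767 genes that passed. The 11 genes at least 2-fold lower were MASP1, MBL2, C2, CFB, C8A, C8B, C8G, CFI, VTN, CLU and CD55, and none was at least 2-fold higher. Of all genes that passed, 6.19% were at least 2-fold lower and 5.18% at least 2-fold higher. MASP1 and C8G passed the filter through the scramble runs alone. Scramble is the group where they were higher, so their folds cannot be separated from the filter. Among the 22 genes over the filter's count cutoff in both groups, a restriction chosen after seeing the data, 9 were at least 2-fold lower and 0 at least 2-fold higher, beside 5.23% and 3.5% of all such genes, and the median log2 ratio was -0.91. The median log2 ratio of shFTO over scramble was -0.94 over the 24 genes and 0.01 over all genes that passed. For each of the 24 genes the runs of the groups did not overlap, 21 with both shFTO runs below and 3 with both above, but 40.2% and 41.4% of all tested genes were separated in these ways. edgeR's quasi-likelihood test called 21 complement genes lower and 3 higher, beside 33.4% and 33.2% of all tested genes. Its spread comes from runs that differ by sampling only, so these calls are about libraries, not about independent cultures.

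**Figure D1:**
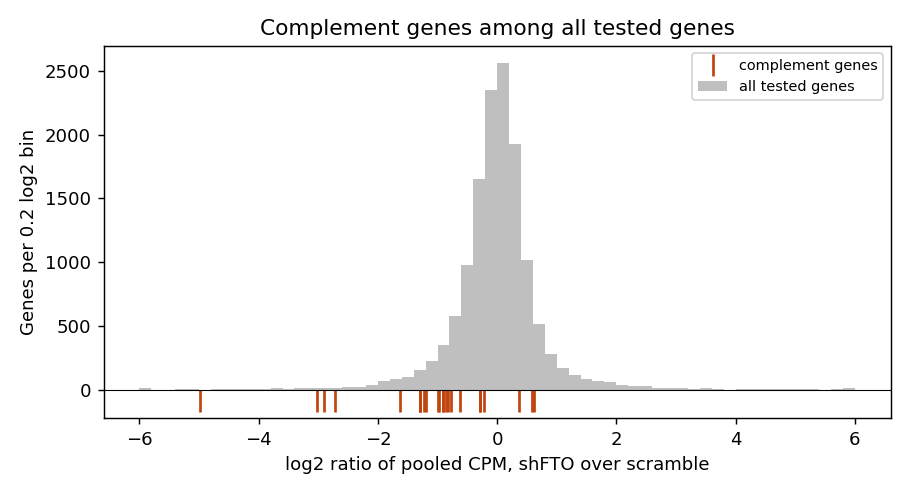
Histogram of the log2 ratio of pooled CPM, shFTO over scramble, for all 13767 tested genes in bins of 0.2, with values beyond 6 in either direction placed in the end bins and the 24 tested complement genes as ticks below the axis. Complement genes run from -4.98 (MASP1) to 0.62 (CD59), and 21 of the 24 ticks lie left of 0.

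**Figure D2:**
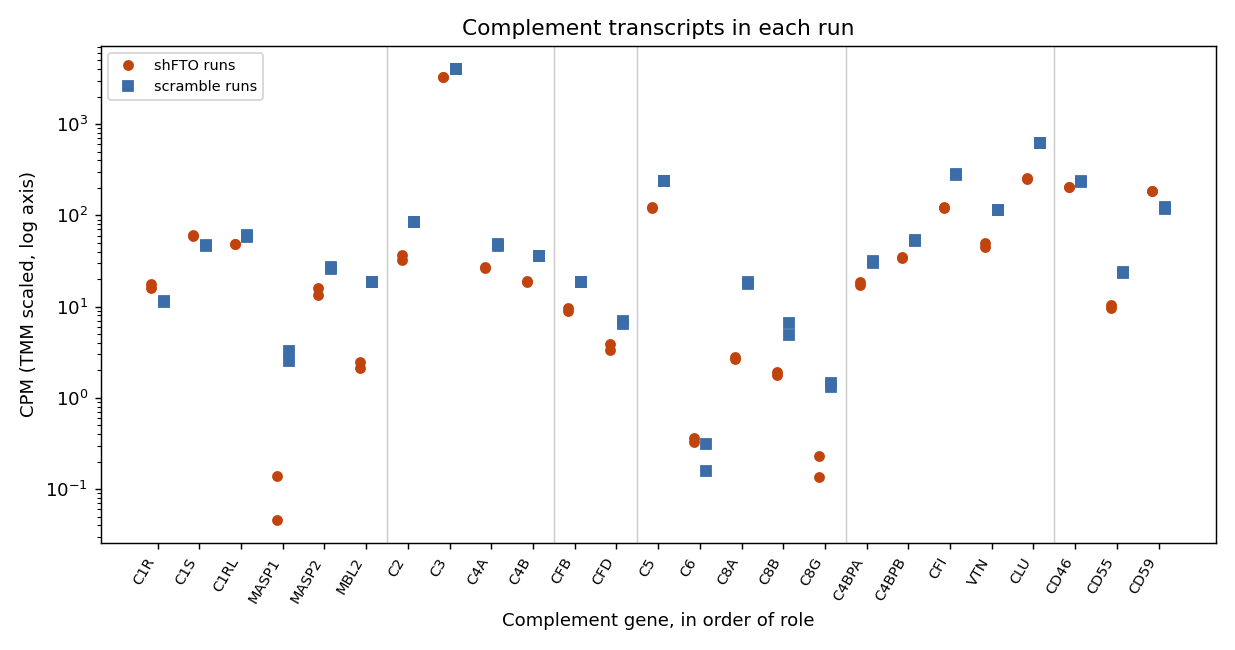
CPM of each complement gene with at least 20 reads over the 4 runs, on a log axis, with shFTO runs as circles on the left and scramble runs as squares on the right of each gene. The 2 runs of a group lie close together in all but the genes with few reads, MASP1, C6, C8B and C8G.

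MBL2 of the lectin branch was among the most reduced transcripts of the list, and MASP2 was reduced less. MBL2 encodes mannose-binding lectin, which binds microbial sugars, and MASP1 and MASP2 encode the serine proteases bound to it. MBL2 had 2.47 and 2.1 CPM in the shFTO runs and 18.7 and 18.6 CPM in the scramble runs, a level 8.16-fold lower (6.6 to 10.2). MASP1 had 3 and 1 reads in the shFTO runs and 62 and 49 in the scramble runs, which made it 31.5-fold lower with a wide counting interval (12 to 118). MASP1 passed the filter through the scramble runs alone, so this fold cannot be separated from the filter. Its log2 ratio of -4.98 rests on these few reads and was -5.99 without shFTO run 1 and -4.38 without shFTO run 2. The MASP1 count covers every product of the gene, and the tables do not separate its isoforms. MASP2 had 16.1 and 13.4 CPM in the shFTO runs and 26.1 and 27.1 CPM in the scramble runs, a smaller difference of 1.8-fold (1.63 to 1.99). For MBL2 and MASP2 both shFTO runs lay below both scramble runs, as for 40.2% of all tested genes.

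C1R and C1S, in contrast to most of the list, were higher in shFTO. They encode the paired serine proteases of the first component, and C1R activates C1S. C1R had 16.1 and 17.5 CPM in the shFTO runs and 11.2 and 11.4 CPM in the scramble runs, 1.49-fold higher (1.32 to 1.68). C1S had 60.4 and 59.8 CPM in the shFTO runs and 46 and 46.9 CPM in the scramble runs, 1.29-fold higher (1.22 to 1.38). C1RL, a related protease gene next to C1R on chromosome 12, had 48.7 and 48.5 CPM in the shFTO runs and 58.1 and 60.7 CPM in the scramble runs, 1.22-fold lower (1.15 to 1.3). C1S, C1R and C1RL follow one another on that chromosome with no other protein-coding gene between them, so these neighbours differed in direction. The C1R transcript shares 24% of its 50-base windows with annotated C1RL transcripts, and how the counting assigned such reads is not given in the sources used here.

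C3, the central substrate of all branches, differed little between the groups although it dominates the list. C3 had 3306 and 3304 CPM in the shFTO runs and 4064 and 4040 CPM in the scramble runs, 1.23-fold lower (1.22 to 1.23). On the RPKM scale, which divides CPM without TMM by the exon length in kilobases, its level was 421 in shFTO and 459 in scramble, rank 59 and rank 67 among 11989 tested protein-coding genes. No other complement gene exceeded 40.5 RPKM in shFTO or 88.2 RPKM in scramble, the levels of CLU. The counts may miss reads shared between genes, C4A and C4B among them. C2, the protease that acts together with C4, had 36.5 and 32.7 CPM in the shFTO runs and 84.6 and 85.2 CPM in the scramble runs and was 2.45-fold lower (2.31 to 2.61).

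C4A and C4B encode the isotypes of the fourth component, and their transcripts are nearly identical. The longest annotated coding transcripts differ at 13 of 5427 aligned bases (99.76% identity), and 93.3% of the 50-base windows of C4A and 93.8% of those of C4B also occur in another gene. The stretch below is shown because it holds 5 of the 13 differences, and a read that covers no difference matches both genes. It is coding sequence of chromosome 6 from GENCODE v29 transcripts, with the differing bases in capitals.
C4A transcript, positions 3422 to 3481: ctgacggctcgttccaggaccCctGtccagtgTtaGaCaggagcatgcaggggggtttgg
C4B transcript, positions 3389 to 3448: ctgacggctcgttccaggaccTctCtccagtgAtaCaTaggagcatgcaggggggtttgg
C4A had 26.3 and 27 CPM in the shFTO runs and 46.7 and 48 CPM in the scramble runs, 1.78-fold lower (1.65 to 1.91). C4B had 18.7 and 19.2 CPM in the shFTO runs and 36 and 35.4 CPM in the scramble runs, 1.88-fold lower (1.73 to 2.06). Both values are uncertain as single genes. Reads that match both may have been left out, so both levels and their sum may be too low, which was not tested. Summed, the pair had 964 and 1014 reads in the shFTO runs and 1564 and 1612 in the scramble runs, 1.82-fold lower (1.72 to 1.93). The ratio of C4A to C4B reads was 1.41 (1.29 to 1.54) in shFTO and 1.33 (1.24 to 1.42) in scramble, intervals that overlap.

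The alternative branch was lower in its 2 tested genes. CFB encodes factor B, the protease of the C3-cleaving complex of this branch, and had 9.66 and 8.88 CPM in the shFTO runs and 18.6 and 18.5 CPM in the scramble runs, 2-fold lower (1.77 to 2.27). CFD encodes factor D, which cleaves factor B, and had 3.88 and 3.32 CPM in the shFTO runs and 6.98 and 6.42 CPM in the scramble runs, 1.86-fold lower (1.52 to 2.29). CFB lay at the 2-fold threshold and was short of it when libraries were scaled by plain size (log2 ratio -0.83) or by upper quartile (-0.95), and without shFTO run 2 (-0.94). Properdin, CFP, which stabilizes that complex, had 3 and 0 reads in the shFTO runs and 1 and 0 in the scramble runs and was not tested. A gene in the tables that joins C2 and CFB, AL645922.1, covers 32.9% of the exonic bases of C2 and 45% of those of CFB in GENCODE v29 and was listed at 0 reads in every run. Reads in the shared exons may have been left out as ambiguous, so the levels of C2 and CFB may be too low, which was not tested.

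In the terminal branch C8A and C8B of the eighth component were lower by more than C5 was. C5 had 122 and 120 CPM in the shFTO runs and 237 and 238 CPM in the scramble runs, 1.97-fold lower (1.9 to 2.03), just short of the threshold. C8A, C8B and C8G encode the alpha, beta and gamma chains of C8. C8A had 2.66 and 2.78 CPM in the shFTO runs and 17.5 and 18.4 CPM in the scramble runs, 6.6-fold lower (5.43 to 8.1). C8B, its neighbour on chromosome 1 with no protein-coding gene between them, had 1.77 and 1.91 CPM in the shFTO runs and 6.56 and 4.92 CPM in the scramble runs, 3.11-fold lower (2.39 to 4.06). C8G, on chromosome 9, had 5 and 3 reads in the shFTO runs and 25 and 28 in the scramble runs, 7.52-fold lower (3.55 to 18.3). C8G passed the filter through the scramble runs alone, so its fold cannot be separated from the filter. The counting intervals of C8A and C8B do not overlap, whereas that of C8G takes in the whole interval of C8A and part of that of C8B.

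The ratio of C8A to C8B shifted with these differences. Reads of C8A per read of C8B numbered 1.48 (1.11 to 1.96) in shFTO and 3.14 (2.69 to 3.65) in scramble. Per length of transcript the ratios were 1.71 and 3.63. C8B had 124 and 95 reads in the scramble runs. Its log2 ratio was -1.42 without scramble run 1 and -1.83 without scramble run 2. Reads of C8A per read of C8G numbered 14.8 (7.21 to 30.2) in shFTO and 13 (9.8 to 17.1) in scramble, intervals that overlap. The remaining pore genes were near or at 0 in both groups. C6 had 7 and 8 reads in the shFTO runs and 3 and 6 in the scramble runs, a ratio of 1.47 whose interval (0.602 to 3.81) includes no difference, C7 had 1 to 3 reads per run, and C9 was listed at 0 in all 4 runs. With a floor of 3 reads per run, 0 reads allow a C9 level of up to 0.14 and 0.137 CPM in the shFTO runs and 0.159 and 0.155 CPM in the scramble runs.

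**Figure D3:**
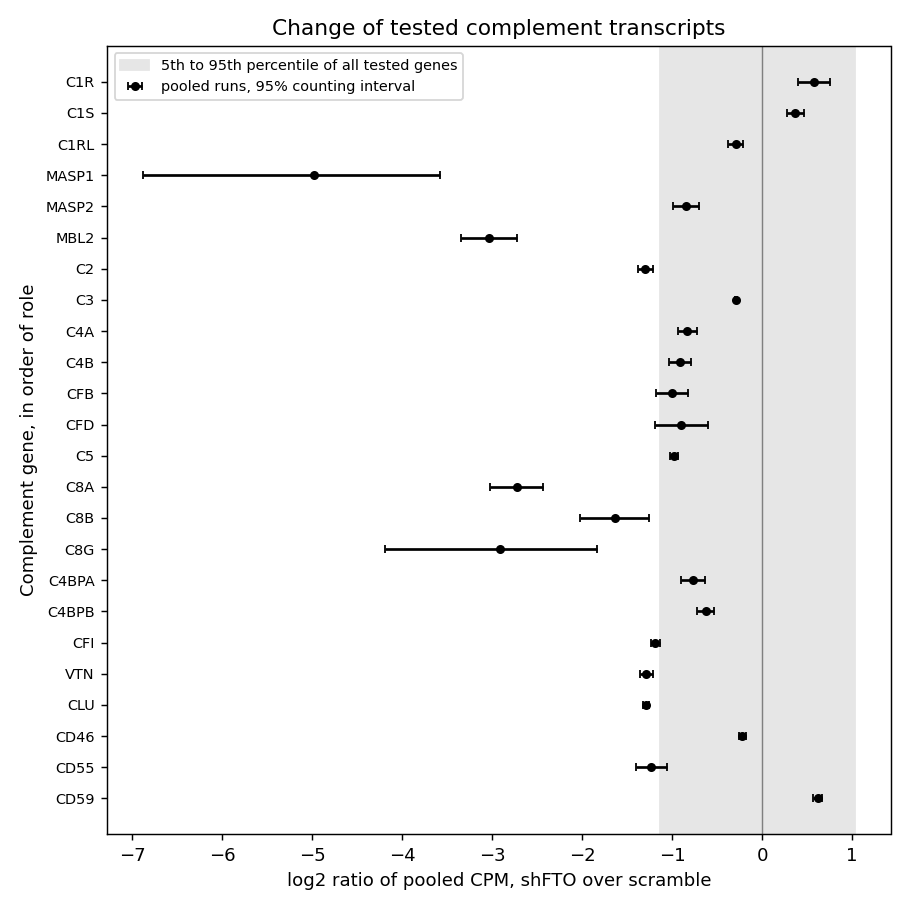
Log2 ratio of pooled CPM, shFTO over scramble, for the 24 tested complement genes in order of role, with 95% counting intervals and the 5th to 95th percentile of all tested genes (-1.14 to 1.03) shaded. MASP1, MBL2 and the 3 C8 genes lie furthest to the left, and C1R, C1S and CD59 are the only tested complement genes right of 0. MASP1 and C8G passed the filter through the scramble runs alone, so their places cannot be separated from the filter.

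All 5 soluble regulators that were tested were lower. CFI encodes factor I, the protease that inactivates C3 and C4 fragments, and had 124 and 121 CPM in the shFTO runs and 278 and 283 CPM in the scramble runs, 2.28-fold lower (2.21 to 2.36). VTN encodes vitronectin, which blocks insertion of the terminal complex, and had 44.9 and 49.2 CPM in the shFTO runs and 114 and 115 CPM in the scramble runs, 2.44-fold lower (2.31 to 2.57). Clusterin, CLU, a chaperone that also holds the terminal complex off membranes, had 255 and 250 CPM in the shFTO runs and 622 and 615 CPM in the scramble runs, 2.45-fold lower (2.39 to 2.5). These 3 differed from scramble by similar factors. In GENCODE v29 the CFI transcript shares 71.8% of its 50-base windows with an overlapping gene, AC126283.2, which the tables do not list.

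C4BPA and C4BPB encode the chains of C4b-binding protein, the cofactor of factor I for C4. C4BPA had 17.4 and 18.4 CPM in the shFTO runs and 30 and 31.2 CPM in the scramble runs, 1.71-fold lower (1.56 to 1.87). C4BPB had 34.6 and 34.2 CPM in the shFTO runs and 53 and 52.7 CPM in the scramble runs, 1.54-fold lower (1.44 to 1.65). These neighbours on chromosome 1 were lower by similar factors, with 1.92 C4BPB reads per C4BPA read (1.76 to 2.09) in shFTO and 1.73 (1.61 to 1.86) in scramble. The factor H related genes CFHR2, CFHR3, CFHR4 and CFHR5, whose proteins bind C3 fragments, gave 0 reads in the shFTO runs and 1 read in the scramble runs, which fell in CFHR2, so no change could be measured.

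The 3 membrane regulators, which protect the cell that carries them, moved in different directions. CD55, which speeds the decay of the C3-cleaving complexes, had 10.4 and 9.75 CPM in the shFTO runs and 24.1 and 23.2 CPM in the scramble runs, 2.35-fold lower (2.09 to 2.64). CD59, which stops C9 from joining the pore, had 183 and 186 CPM in the shFTO runs and 117 and 123 CPM in the scramble runs, 1.54-fold higher (1.48 to 1.59). CD46, the membrane cofactor of factor I, had 202 and 203 CPM in the shFTO runs and 240 and 232 CPM in the scramble runs, 1.17-fold lower (1.13 to 1.2). Plain library size raises the median log2 ratio of all tested genes by 0.17, and with it the log2 ratio of CD46 was -0.05 in place of -0.22. CD59 reads per CD55 read numbered 18.3 (16.6 to 20.2) in shFTO and 5.08 (4.73 to 5.46) in scramble, a ratio that does not depend on the library scaling. CD55 lies next to C4BPA on chromosome 1, with 3 protein-coding genes between CD55 and CD46.

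**Figure D4:**
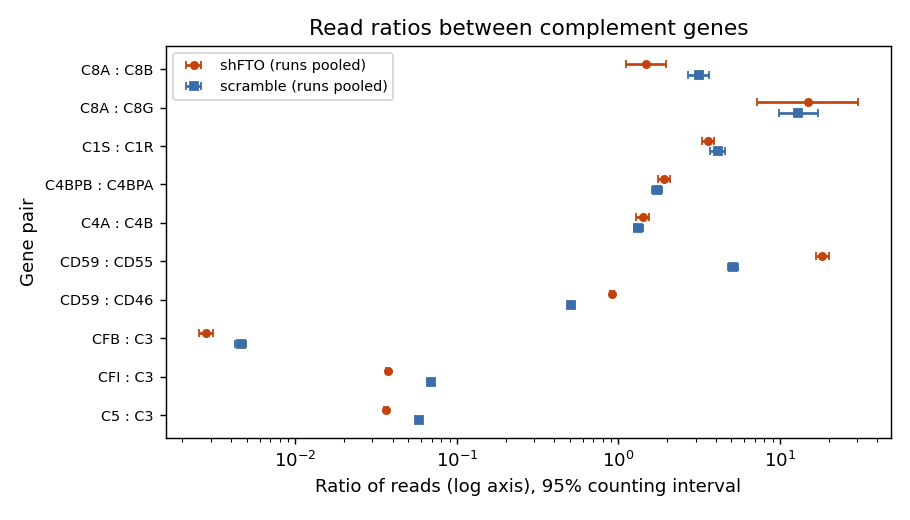
Ratio of pooled reads between pairs of complement genes, chosen after their values were seen, with 95% counting intervals from a normal approximation on the log scale and a log axis, shFTO above scramble in each pair. The groups stand furthest apart in CD59 to CD55, 18.3 in shFTO and 5.08 in scramble, and their intervals overlap in C8A to C8G, C1S to C1R, C4BPB to C4BPA and C4A to C4B. Taken directly, the shFTO ratio over the scramble ratio was 0.868 (0.76 to 0.992) for C1S to C1R, an interval without no difference. For the other pairs with overlap the interval of this change included no difference.

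Because C3 was reduced less than most, it took a larger share of the complement reads in the knockdown. All 32 genes together took 4813 and 4806 CPM of the unscaled libraries in the shFTO runs and 5811 and 5795 CPM in the scramble runs, 1.21-fold lower (1.2 to 1.21), or 1.36-fold lower with TMM scaling. Without C3 the sum was 1311 and 1303 CPM in the shFTO runs and 1977 and 1981 CPM in the scramble runs, 1.51-fold lower (1.5 to 1.53), or 1.7-fold lower with TMM scaling. C3 made up 72.8% and 72.9% of complement reads in the shFTO runs and 66% and 65.8% in the scramble runs. By role, the soluble regulators took 10.5% of pooled complement reads in shFTO and 17.8% in scramble, and the terminal branch 2.77% in shFTO and 4.27% in scramble. The membrane regulators took 8.75% in shFTO and 6.17% in scramble, where the share is set mainly by CD46 and CD59. The ratio of C5 to C3 reads was 0.0365 (0.0355 to 0.0375) in shFTO and 0.0586 (0.0573 to 0.0598) in scramble, and that of CFI to C3 reads was 0.0372 (0.0362 to 0.0382) in shFTO and 0.0692 (0.0678 to 0.0705) in scramble.

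**Figure D5:**
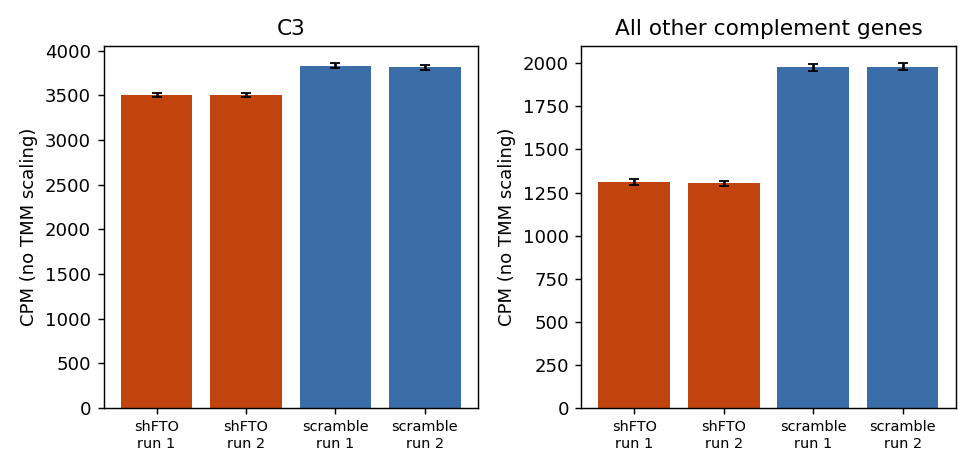
Level of C3 (left panel) and of the other 31 complement genes summed (right panel) in each run, in CPM without TMM scaling, with exact 95% binomial intervals as error bars, shFTO runs left of scramble runs. C3 is at 3502 and 3503 CPM in the shFTO runs and at 3833 and 3813 CPM in the scramble runs, a smaller gap than that of the other genes.

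The letters of 5 promoters are given because their genes span the range of changes, from MBL2, C8A and VTN, which were lower, to C1R and CD59, which were higher; they were chosen after these values were seen. The sequences are the 250 bases before each gene's start, from RefSeq on GRCh38.p14, which is not the build of the count tables, and matches to the searched motifs are in capitals.
MBL2 promoter, chr10:52772785-52773034, minus strand: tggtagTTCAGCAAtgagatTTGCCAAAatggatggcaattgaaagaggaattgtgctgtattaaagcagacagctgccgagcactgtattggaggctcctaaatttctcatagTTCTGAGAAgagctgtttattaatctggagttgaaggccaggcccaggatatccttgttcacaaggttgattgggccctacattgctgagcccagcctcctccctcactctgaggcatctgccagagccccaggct
C8A promoter, chr1:56854547-56854796, plus strand: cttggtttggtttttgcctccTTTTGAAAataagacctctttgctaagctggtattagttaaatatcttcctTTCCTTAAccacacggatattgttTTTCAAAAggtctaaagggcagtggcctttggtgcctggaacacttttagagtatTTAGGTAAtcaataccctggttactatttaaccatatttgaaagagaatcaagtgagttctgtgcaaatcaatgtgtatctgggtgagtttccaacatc
VTN promoter, chr17:28370308-28370557, minus strand: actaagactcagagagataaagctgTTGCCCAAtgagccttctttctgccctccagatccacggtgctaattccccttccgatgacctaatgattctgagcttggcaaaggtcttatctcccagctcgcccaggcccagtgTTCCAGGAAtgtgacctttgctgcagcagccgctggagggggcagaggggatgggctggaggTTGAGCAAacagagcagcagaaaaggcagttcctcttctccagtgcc
C1R promoter, chr12:7092446-7092695, minus strand: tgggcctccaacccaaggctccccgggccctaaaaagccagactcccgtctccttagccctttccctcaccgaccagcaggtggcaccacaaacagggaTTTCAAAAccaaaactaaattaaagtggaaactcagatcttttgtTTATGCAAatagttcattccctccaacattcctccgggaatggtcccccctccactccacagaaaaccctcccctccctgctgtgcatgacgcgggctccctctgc
CD59 promoter, chr11:33736480-33736729, minus strand: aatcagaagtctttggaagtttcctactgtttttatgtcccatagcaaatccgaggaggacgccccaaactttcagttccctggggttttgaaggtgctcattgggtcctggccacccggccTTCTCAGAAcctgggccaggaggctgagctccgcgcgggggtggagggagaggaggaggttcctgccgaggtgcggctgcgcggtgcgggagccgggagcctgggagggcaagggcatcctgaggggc
RefSeq promoters were found for 22 of the 32 genes. The motif TTNNGNAA, a loose form of the site of C/EBP factors, which drive acute phase genes, was present on either strand in 10 of the 22 and in 33.6% of all 27305 promoters. The motif TTCNNNGAA, the palindrome of STAT factors, was present in 7 of the 22 and in 6.78% of all promoters, namely in C1RL, C7, CD59, CFB, MASP2, MBL2 and VTN. Genes with the STAT palindrome included lower ones (MBL2, VTN, CFB, MASP2 and C1RL) and a higher one (CD59). The tested genes with the C/EBP motif were C8A, MBL2, VTN, CFI, C4BPA, C4BPB and C1RL, which were lower, and C1R, which was higher. The searched NF-kB motif was present in CD55 alone among the 22 and in 5.08% of all promoters. The searched HNF1 motif, CAAAGTCCA for HNF4 and an inverted nuclear receptor repeat were in none of the 22 and in 0.033%, 0.293% and 0.011% of all promoters. A match is a match of letters only.

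Transcription factors and cytokine signalling genes linked to liver complement expression differed in both directions. Of 20 tested genes of this list, 3 were at least 2-fold lower, 2 at least 2-fold higher and the median log2 ratio was 0.19, beside 6.19%, 5.18% and 0.01 over all tested genes. By edgeR's quasi-likelihood test 7 were lower and 11 higher, beside 33.4% and 33.2% of all tested genes. The 3 were CEBPD (4.17-fold, 3.81 to 4.57), SOCS3, the feedback inhibitor of cytokine signalling, with 35 and 21 reads in the shFTO runs and 111 and 106 in the scramble runs, and NR5A2, a nuclear receptor of liver genes, with 52 and 46 reads in the shFTO runs and 102 and 97 in the scramble runs. SOCS3 and NR5A2 were named after their values were seen. IL1RAP, the coreceptor of interleukin 1, was 1.89-fold lower (1.74 to 2.05). CEBPB, a C/EBP factor of the acute phase, had 1152 and 1085 reads in the shFTO runs and 1955 and 1977 in the scramble runs, 1.99-fold lower (1.89 to 2.1). HNF4A, a nuclear receptor of hepatocyte genes, was 1.32-fold lower (1.28 to 1.35). The higher genes included CEBPA (3.16-fold, 2.62 to 3.84) and the interleukin 6 signalling genes JAK1 (2.04-fold, 1.95 to 2.14), IL6R (1.81-fold, 1.72 to 1.9) and IL6ST (1.49-fold, 1.44 to 1.54). JAK1 had 2804 and 2861 reads in the shFTO runs and 1229 and 1214 in the scramble runs. Whether any of these bears on the complement genes was not tested.

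Complement receptors and recognition proteins were mostly too low to test. Of 28 further genes of the system 8 were tested, and 10 had no read in any run, among them C1QA, C1QB and C1QC, the chains of the recognition part of the first component, and the ficolin genes FCN1, FCN2 and FCN3. Of the 8, 3 were at least 2-fold lower and 1 at least 2-fold higher, with a median log2 ratio of -0.26, beside 6.19%, 5.18% and 0.01 over all tested genes. edgeR called 5 lower and 1 higher, beside 33.4% and 33.2%. CPN1, the catalytic subunit of carboxypeptidase N, which inactivates C3 and C5 peptides, had 196 and 192 reads in the shFTO runs and 565 and 533 in the scramble runs, 3.21-fold lower (2.86 to 3.61). CPN2, the regulatory subunit of the same enzyme, had 1094 and 1133 reads in the shFTO runs and 1003 and 1012 in the scramble runs, a log2 ratio of -0.04. CALR was 1.24-fold lower (1.23 to 1.25) and C1QBP 1.16-fold lower (1.13 to 1.19). ITGB2, the beta chain of complement receptors on leukocytes, was 2.33-fold lower (2.06 to 2.65), whereas its partners ITGAX, with 8 and 3 reads in the shFTO runs and 15 and 18 in the scramble runs, and ITGAM, with 12 and 18 reads in the shFTO runs and 1 and 0 in the scramble runs, were scarce. ITGAX, 1 of the 3 lower genes, passed the filter through the scramble runs alone, and ITGAM, the higher gene, through the shFTO runs alone. Their fold calls cannot be separated from the filter. CPN2, ITGAX and ITGAM were named after their values were seen.

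Most defining markers of other complement-producing cells were at or near 0, while several, LYZ, PDGFRB and ACTA2 among them, had reads in every run. Of 10 myeloid markers, PTPRC was at 0 and CD68, CSF1R, CD163, SPI1, TYROBP and MARCO had at most 1 read per run. Of the 3 that were tested, all were lower in shFTO. Over all tested genes, a comparison for this list and the lists that follow, 49.1% were lower and 50.9% higher. CD14 had 17 and 17 reads in the shFTO runs and 31 and 19 in the scramble runs. AIF1 had 4 and 5 reads in the shFTO runs and 28 and 35 in the scramble runs. It passed the filter through the scramble runs alone. CD14 and AIF1 were named after their values were seen. LYZ made up nearly all of the summed 233 CPM in each shFTO run and 3001 and 3008 CPM in the scramble runs. Of 10 fibroblast markers COL3A1, DCN, LUM, THY1 and FAP were at 0, 3 were tested (1 lower, 2 higher), and the sum was 39.6 to 43.7 CPM in the shFTO runs and 55 to 56.7 CPM in the scramble runs. ACTA2, a smooth muscle actin, had 796 and 714 reads in the shFTO runs and 637 and 603 in the scramble runs. Its ratio of CPM was 1.07 (0.995 to 1.16), an interval that includes no difference. PDGFRB, a growth factor receptor, had 77 and 80 reads in the shFTO runs and 434 and 455 in the scramble runs, 6.42-fold lower (5.42 to 7.66). COL1A1, a collagen gene named after its values were seen, had 61 and 74 reads in the shFTO runs and 2 and 3 in the scramble runs. The fold, 23.8-fold higher, rests on these few scramble reads and is given without a counting interval. COL1A1 passed the filter through the shFTO runs alone. Of 10 endothelial markers PECAM1, KDR, ERG and CLEC4G were at 0 and 3 were tested (2 lower, 1 higher), with sums of 3.73 to 4.39 CPM in the shFTO runs and 5.34 to 6.42 CPM in the scramble runs. The part of these markers in the complement values was not tested.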

How the data were processed

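The authors deposited 4 tables of raw read counts per Ensembl gene, 2 from shFTO and 2 from scramble cells. The submitters' processing notes name build hg19, the aligner TopHat2 (2.1.1) and the counter HTSeq (0.6.0); the annotation release and strand setting are not given in the sources used here, so reads of overlapping genes cannot be told apart. Symbols came from a table of Ensembl identifiers, and lengths and overlaps from GENCODE v29 (another build, used without coordinates). RPKM here uses the union of exons and plain library size.

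From the deposited counts, library sizes were scaled by TMM on genes kept by filterByExpr (edgeR 4.0.16, R 4.3.3). Ratios are of pooled CPM, shFTO over scramble. A gene was described singly with at least 20 reads over the 4 runs, and all 32 are accounted for; of other lists, up to 4 genes each way with at least 5 CPM are named. edgeR's test used a Benjamini-Hochberg adjusted p under 0.05, two-sided. Alternatives were other scalings and filters, DESeq2 1.42.0, a replicate block and leaving out each run. The genes, lists and motifs were chosen with earlier results of these data known.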

Additional observations from a re-analysis of the deposited data

How the results depend on the processing

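No tested complement gene changed direction under DESeq2 size factors, upper quartile or plain library size scaling, or without any 1 run. Of the 24 log2 ratios, 15 left their counting interval with plain library size, 4 with upper quartile and none with DESeq2 size factors. The number of genes at least 2-fold lower was 10 to 12 without 1 run and 10 to 11 under the other scalings, filters and with C4A and C4B summed, CFB being the gene lost with plain library size, with upper quartile and without shFTO run 2. It was 9 among the 22 genes over the count cutoff in both groups, a restriction chosen after seeing the data. With a 1.5-fold threshold 18 genes were lower and 1, CD59, higher, beside 13.4% and 11.4% of all tested genes. Without a filter on low counts 1 gene, CFP with 3 reads against 1, counted as 2-fold higher. The median log2 ratio was -0.78 with plain library size, -0.98 to -0.90 under the other scalings and filters and with the C4 genes summed, and -1.0 to -0.94 without 1 run. The ratio of summed complement reads, shFTO over scramble, was 0.829, and 0.738 with TMM scaling, 0.66 without C3 and 0.828 to 0.83 without 1 run.

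The edgeR calls among complement genes were 21 lower and 3 higher with the replicate block, as without it. They were the same with DESeq2's Wald test and without any 1 run. With plain library size 20 were called lower. With a minimum mean of 1 CPM 20 were also called lower, but there C8G fell under that mean and was not tested. The replicate numbers are shared by the groups, but the deviations of replicate 1 from the group means were uncorrelated (0.00405 over 13767 genes), so the numbers were not taken to pair the runs. Among tested complement genes MASP1 and C8G had the widest counting intervals, and 8 genes had too few reads to test.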
